A study of Mus musculus with 33 samples.

Results

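Small nucleolar RNAs (snoRNAs) and their Cajal body relatives (scaRNAs) were followed in old mouse hematopoietic stem cells (HSCs) and in the 2 progenitors sorted beside them, the common lymphoid progenitors (CLPs) and the granulocyte-monocyte kind (GMPs). They were taken by symbol, as names that start with Snord, Snora or Scarna and a number, and by a mean above 1 CPM, the read count scaled to an equal total per library, over the 24 libraries of cohort 2. Of 55376 symbols in the files 147 carried such a name, and 45 passed the limit on the mean. These 45 RNAs were 24 of 98 C/D box snoRNAs (Snord), 15 of 40 H/ACA box snoRNAs (Snora) and 6 of 9 scaRNAs (Scarna). The limit was close to Snord71 at 1.06, Snora2b at 1.13 and Snord11 at 1.18 CPM on its inner side, and to Snord85 at 0.976, Snord72 at 0.877 and Snord53 at 0.874 CPM on its outer side.

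Total RNA was sequenced from sorted marrow cells of C57BL/6 male mice aged 24 to 29 months. Untreated old mice (O-WT) were compared with old mice given nicotinamide riboside (NR), a precursor of NAD+, in the drinking water for 4 to 6 weeks (O-NR). Cohort 2 held 4 O-WT and 4 O-NR libraries each of HSCs, CLPs and GMPs, and cohort 1 held HSCs alone, with 2 O-WT libraries, 4 O-NR libraries and 3 libraries from mice kept for 2 months after NR was withdrawn (O-NR-RC). All groups thus share old age, and no young mice enter here. HSCs were sorted as lineage-negative cKit+ Sca1+ CD34- Flk2- CD150+ cells. One label field names the GMPs as common myeloid progenitors, while their titles and the study's text call them GMPs, the name kept here. Whether libraries of a group came from separate mice was not given in the labels, and p-values then measure only the spread between these libraries, which may be technical.

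C/D box snoRNAs bind fibrillarin and guide the methylation of ribose in ribosomal RNA, while H/ACA box snoRNAs bind dyskerin and guide the conversion of uridine to pseudouridine. ScaRNAs do the same for the small nuclear RNAs of the spliceosome in Cajal bodies, and a few snoRNAs are instead needed to cut the ribosomal RNA precursor. In mammals most of them are cut out of introns of a host gene after splicing, hosts that often encode ribosomal proteins or factors of ribosome assembly, and a few have promoters of their own.

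The RNAs on which the results turn are printed here from the Gencode M21 transcripts of mm10, since their class can be read from the sequence. Snord17 (chr2:144265979-144266216, minus strand, 238 nt), Snord15a (chr7:99482785-99482932, minus, 148 nt) and Snord8 (chr14:52209785-52209894, minus, 110 nt) lie in introns of Snx5, Rps3 and Chd8. Snord118 (chr11:69073427-69073561, plus, 135 nt) has no host on its strand. Snora21 (chr11:97781639-97781775, minus, 137 nt) and Snora30 (chr7:127527874-127528003, plus, 130 nt) lie in introns of Rpl23 and Srcap, and Snora43 (chr2:26637847-26637985, minus, 139 nt) has no host. Scarna9 (chr9:15326264-15326333, minus, 70 nt) lies in an intron of Cep295. Capitals mark the C box (TGATGA) and the D box (CTGA) of the C/D box RNAs and of Scarna9, and the ACA box, which ends 3 bases before the end, of the H/ACA box RNAs.
Snord17: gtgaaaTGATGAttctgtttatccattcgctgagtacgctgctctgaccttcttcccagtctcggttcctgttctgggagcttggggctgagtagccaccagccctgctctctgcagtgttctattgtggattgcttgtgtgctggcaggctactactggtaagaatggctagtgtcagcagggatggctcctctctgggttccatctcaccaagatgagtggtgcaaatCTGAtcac
Snord15a: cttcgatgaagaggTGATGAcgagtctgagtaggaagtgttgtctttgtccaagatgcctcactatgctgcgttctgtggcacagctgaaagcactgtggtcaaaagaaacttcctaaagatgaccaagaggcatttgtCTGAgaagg
Snord8: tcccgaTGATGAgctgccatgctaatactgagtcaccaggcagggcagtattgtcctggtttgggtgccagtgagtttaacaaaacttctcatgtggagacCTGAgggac
Snord118: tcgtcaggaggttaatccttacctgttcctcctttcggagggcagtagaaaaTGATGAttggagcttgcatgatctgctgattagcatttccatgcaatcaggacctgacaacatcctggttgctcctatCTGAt
Snora21: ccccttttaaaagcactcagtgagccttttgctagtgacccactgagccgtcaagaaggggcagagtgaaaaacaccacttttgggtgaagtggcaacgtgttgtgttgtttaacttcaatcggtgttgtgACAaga
Snora30: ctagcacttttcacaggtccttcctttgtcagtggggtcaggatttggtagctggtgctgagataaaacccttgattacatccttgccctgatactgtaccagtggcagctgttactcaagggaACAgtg
Snora43: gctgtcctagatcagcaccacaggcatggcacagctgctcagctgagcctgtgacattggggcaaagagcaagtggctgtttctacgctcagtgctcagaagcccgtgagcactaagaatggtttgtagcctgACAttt
Scarna9: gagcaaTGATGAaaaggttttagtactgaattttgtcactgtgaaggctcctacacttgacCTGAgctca
Of all 98 Snord sequences, 74 (75.5%) held TGATGA followed by CTGA on the transcribed strand, against 0 of 40 Snora sequences and 5 of 9 Scarna sequences (55.6%). An ACA ending 3 bases before the end was found in 34 of 40 Snora sequences (85%), in 0 of 98 Snord sequences and in 2 of 9 Scarna sequences (22.2%). The names and the sequences thus gave the same classes for most RNAs, and the Scarna names took in both kinds.

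The reads on these RNAs differed with their place, and their level differed with their length. Of the 147 symbols, 69 had no read in any of the 24 libraries, and 54 of those 69 lie wholly inside an exon of another gene on the same strand. All 54 symbols so placed were at 0, among them Snord33 in its host Rpl13a, so their 0 is not read here as absence. Another 14 of the 69 were copies of Snord116. Among the 45 expressed RNAs, 36 lie in an intron of a host, 1 (Snora2b in Kansl2) reaches into an exon of its host, and 8 have no host on their strand. Length ran with level, since the 8 RNAs with a mean above 20 CPM were 137 to 414 nt long and the other 37 were 66 to 149 nt. Of 86 C/D box symbols under 100 nt only 16 were expressed by the limit used, a count that does not set apart those inside exons. Within the C/D box class the median length was 86 nt for expressed RNAs and 82.5 nt for the others. It was 137 and 132 nt for H/ACA box RNAs and 198 and 140 nt for scaRNAs. Whether length set the level was not tested. Reads of an unspliced host that cover a snoRNA are counted with it, and their part in the values was not tested.

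A few RNAs held most of the signal. Before any scaling between libraries, Snord17 averaged 407 CPM and Snord15a 229.8 CPM, both guides of 28S rRNA methylation, and no other C/D box RNA averaged above Snord118 at 10.9 CPM. Among the H/ACA box RNAs Snora21 averaged 128 CPM, Snora73b 92.3 CPM and Snora23 68.5 CPM. Snora57 and Snora17 followed at 19.2 and 15.6 CPM. Among the scaRNAs Scarna2, a guide for U2 snRNA, averaged 152 CPM, Scarna13 118 CPM and Scarna6 26.6 CPM. Per kilobase of the RNA the order changed little at the top, with 1711 CPM per kb for Snord17, 1552 for Snord15a and 931 for Snora21. Scarna2, the longest at 414 nt, came to 366 CPM per kb, below Snora73b at 450.0, Scarna13 at 429.7 and Snora23 at 372.

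The libraries held 4792380 to 18213674 counted reads in cohort 2 and 8897256 to 23816042 in cohort 1, and each sort carried its own markers. The 5 HSC markers (Slamf1, Procr, Hlf, Mecom, Fgd5) summed to 755 to 1339 CPM in O-WT HSCs and at most 64.0 CPM in O-WT CLPs and GMPs. The 5 CLP markers (Il7r, Flt3, Rag1, Dntt, Ly6d) summed to 1378 to 3238 CPM in O-WT CLPs and the 5 GMP markers (Mpo, Elane, Prtn3, Ctsg, Fcgr3) to 17929 to 27687 CPM in O-WT GMPs. Markers of B and plasma cells summed to 44.1 to 718 CPM in O-WT HSCs and 286 to 673 CPM in O-WT CLPs, and their part in the results was not tested. In each cell type of cohort 2 the library with the lowest summed level of the 45 RNAs, O-WT HSC library 2, O-WT CLP library 3 and O-WT GMP library 4, also had the highest TMM factor and the highest sum over 1971 olfactory and vomeronasal receptor genes, whose known roles lie in the nose. That sum was 3369, 4569 and 2484 CPM in those libraries, against 1713, 2113 and 1391 CPM in the lowest library of each cell type. Counts of calls are therefore also given without these 3 libraries. A high receptor sum did not always go with a low summed level. O-NR CLP libraries 3 and 4 had receptor sums of 4259 and 4082 CPM but summed levels of 1077 and 1203 CPM. ScaRNAs made up 19.3 and 17.8% of the summed level there, against 26.4 and 24.3% in O-NR CLP libraries 1 and 2. From here on CPM are scaled by TMM, which balances a trimmed mean over genes between libraries. The median over all genes could still differ, as by 0.44 on the log2 scale for O-WT CLPs minus GMPs.

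Summed over each class, the RNAs were highest in HSCs. C/D box RNAs summed to 1097 CPM ± 379 (SD, n = 4) in O-WT HSCs, to 476 ± 195 in O-WT CLPs and to 479.5 ± 116 in O-WT GMPs. The lowest O-WT HSC library (674) lay above the highest CLP library (630.2) and the highest GMP library (578). H/ACA box RNAs summed to 553 ± 197 CPM in O-WT HSCs, 246 ± 99.9 in CLPs and 308 ± 60.1 in GMPs, and here the lowest HSC library (344) lay above all CLP libraries but below the highest GMP library (374). ScaRNAs summed to 421 ± 136 CPM in O-WT HSCs, 217 ± 82.4 in CLPs and 264 ± 57.1 in GMPs, and the HSC range of 281 to 591 overlapped both others. In the O-NR libraries no class sum of HSCs overlapped that of CLPs or GMPs. Without the highest RNA of each class, O-NR HSCs still lay above O-NR GMPs in all 3 classes, but they overlapped O-NR CLPs in all 3. The C/D box RNAs other than Snord17 summed to 278 to 481 CPM in O-NR HSCs and 243 to 318 CPM in O-NR CLPs. For the H/ACA box RNAs of O-WT the gap to CLPs was also lost, with the lowest HSC library at 201 CPM and the highest CLP library at 242 CPM. The cells were sorted on surface markers, and fewer cells of a type and less RNA per cell cannot be told apart in bulk libraries. A sum over chosen RNAs was given no test.

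**Figure D1:**
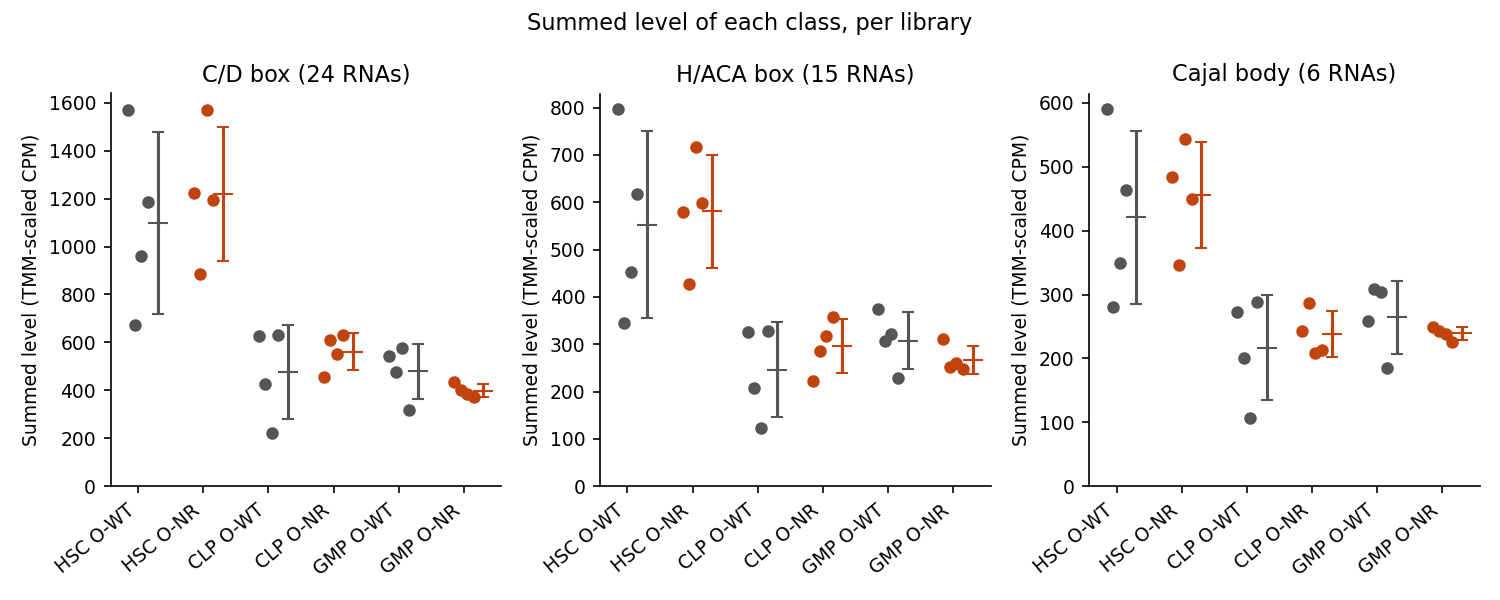
Sum of TMM-scaled CPM over the 24 C/D box, 15 H/ACA box and 6 Cajal body RNAs in each cohort 2 library, by cell type and treatment, where points are libraries and bars the mean ± SD of 4. HSC libraries sit above CLP and GMP libraries in each class, with overlap in O-WT for the H/ACA box (GMPs) and Cajal body classes.

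Much of the C/D box sum came from 1 RNA. Snord17 made up 65.7 to 69.3% of the C/D box sum in HSCs, 46.5 to 52.4% in CLPs and 34.6 to 42.4% in GMPs. Without it the C/D box sum was 369.7 ± 129 CPM in O-WT HSCs, 252 ± 103 in CLPs and 289.7 ± 73.2 in GMPs, and the ranges of 229.9 to 529.9, 118 to 336 and 193 to 356 overlapped. Of the 45 RNAs, 30 had their highest mean over 8 libraries in HSCs, 11 in GMPs and 4 in CLPs. By class, HSCs were highest for 13 of 24 C/D box RNAs, 12 of 15 H/ACA box RNAs and 5 of 6 scaRNAs. The same share over all genes was not taken, so nothing is read from these counts.

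Whether a stem cell carries other levels of these guides than its progeny was asked first between HSCs and CLPs of untreated old mice. With the quasi-likelihood test of edgeR and p-values adjusted over 29716 genes by Benjamini-Hochberg, 14 of the 45 RNAs were higher in HSCs and 0 lower at an adjusted p below 0.05. Over all genes tested 12.5% were called higher, 6.65% lower and 19.2% in either direction, against 31.1% of these RNAs. The called RNAs were 3 of 24 C/D box RNAs, 8 of 15 H/ACA box RNAs and 3 of 6 scaRNAs. The median difference over the 45 was 0.49 on the log2 scale, against -0.16 over all genes. In 7 of the 45 every HSC library lay above every CLP library, as it did for 11.2% of all genes. Without the library of highest receptor counts in each cell type 14 were called higher and 1 lower, while leaving out O-WT HSC library 1 alone gave 8.

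Among the C/D box RNAs, Snord17 was at 1041, 444, 647 and 778 CPM in the 4 O-WT HSC libraries and at 292, 202, 104 and 301 CPM in the 4 O-WT CLP libraries. Every HSC library lay above every CLP library. The difference was 1.70 on the log2 scale (SE 0.27, edgeR adjusted p = 6.08e-07), or 3.24-fold. Snord8, a guide of U6 snRNA methylation, was at 11.1, 4.28, 5.25 and 8.94 CPM in HSCs and at 2.42, 1.13, 1.61 and 2.43 CPM in CLPs. Its groups were apart as well, and it was 3.85-fold higher in HSCs (log2 1.95, SE 0.35, edgeR adjusted p = 1.12e-05). Snord23 was the third called, at 1.71 to 3.89 CPM against 0.230 to 0.649 CPM. Snord15a, second in level, was at 184 to 423 CPM in HSCs and 87.8 to 261 CPM in CLPs, which overlapped, and it did not pass (log2 0.61, SE 0.25, edgeR adjusted p = 0.0871).

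Among the H/ACA box RNAs, Snora21, a guide of 28S rRNA pseudouridylation, was at 325, 143, 194 and 258 CPM in O-WT HSCs and at 90.1, 59.7, 34.8 and 86.8 CPM in O-WT CLPs. The lowest HSC library was above the highest CLP library, and the difference was 3.39-fold (log2 1.76, SE 0.25, edgeR adjusted p = 2.63e-08). Snora30 was at 17.1, 7.18, 8.84 and 11.3 CPM in HSCs and at 2.86, 2.15, 1.72 and 3.25 CPM in CLPs. It showed no overlap either and was 4.39-fold higher (log2 2.13, SE 0.31, edgeR adjusted p = 6.99e-08). Snora73b, or U17, which takes part in the early cuts towards 18S rRNA rather than in modification, was 2.05-fold higher (log2 1.03, SE 0.25, edgeR adjusted p = 0.00100), at 77.6 to 186 CPM against 30.8 to 88.8 CPM. These ranges overlapped. Snora69, Snora20, Snora47, Snora57 and Snora23 were also called, with log2 differences of 1.57, 1.68, 1.18, 0.85 and 0.72. The calls of Snora20, Snora47, Snora57 and Snora23 were each lost without O-WT HSC library 1, without HSC library 4 and without CLP library 2 or 3, and that of Snora20 also without CLP library 4. With upper quartile scaling Snora23, Snora20, Snora47 and Snora57 did not pass either.

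Among the scaRNAs, Scarna2 was at 327, 152, 196 and 249 CPM in O-WT HSCs and at 127, 94.2, 47.8 and 133 CPM in O-WT CLPs. Its groups did not overlap, and it was 2.30-fold higher in HSCs (log2 1.20, SE 0.24, edgeR adjusted p = 8.12e-05). Scarna13 and Scarna6, guides for snRNAs of the spliceosome, were higher by 0.72 and 0.79 on the log2 scale (edgeR adjusted p = 0.0251 and 0.0135). The call of Scarna13 was lost without O-WT HSC library 1 or 4 or CLP library 2 or 3, and that of Scarna6 without HSC library 1 or CLP library 2 or 3. With RLE size factors or DESeq2 Scarna13 did not pass.

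Against O-WT GMPs, 10 of the 45 RNAs were higher in HSCs and 3 lower by the same edgeR test. Of all genes 11.8% were called higher, 16.7% lower and 28.5% in either direction, and the 28.9% of these RNAs called was close to that background. The median difference was 0.18 on the log2 scale, against 0.23 over all genes. Counts were 10 and 3 without the library of highest receptor counts in each cell type, and 1 lower without O-WT HSC library 2. With library totals alone, which moved the median of all genes by 0.54 on the log2 scale, 20 were higher and 0 lower. Of the 29716 genes tested 8296 were then higher and 3300 lower. In 7 of the 45 every HSC library lay above every GMP library, as it did for 12.6% of all genes. All 10 higher RNAs (Snord17, Snord8, Snord23, Snora30, Snora21, Snora20, Snora69, Snora73b, Snora23 and Scarna2) were also among the 14 called against CLPs. HSCs were thus above both progenitors for 10 RNAs in O-WT, which was so for 6.48% of all genes.

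Snora30 stood at 2.75, 2.14, 1.94 and 1.87 CPM in the 4 O-WT GMP libraries, below the 7.18 to 17.1 CPM of the HSC libraries. The difference was 5.08-fold (log2 2.34, SE 0.31, edgeR adjusted p = 3.85e-09). Snord17 was at 189, 202, 244 and 125 CPM in O-WT GMPs. All 4 HSC libraries were higher, by 3.83-fold in the fit (log2 1.94, SE 0.27, edgeR adjusted p = 1.65e-08). Snord8, at 2.83, 1.25, 2.11 and 1.33 CPM in GMPs, was 3.91-fold higher in HSCs (log2 1.97, edgeR adjusted p = 4.50e-06). Snora21, at 99.3, 84.0, 78.8 and 63.9 CPM in GMPs, was 2.82-fold higher in HSCs (log2 1.50, edgeR adjusted p = 7.16e-07). Neither overlapped between the groups. Scarna2 was higher by 1.02 on the log2 scale (edgeR adjusted p = 5.12e-04) with 79.4 to 134 CPM in GMPs, also without overlap. Snora73b and Snora23 were higher by 0.71 and 0.66 (edgeR adjusted p = 0.0226 and 0.0338). Both calls were lost without O-WT HSC library 1 or 4 or GMP library 4, and that of Snora23 also without GMP library 2. Neither passed with RLE size factors or DESeq2. The call of Snora20 (1.64) was lost without O-WT HSC library 1 or 4.

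Snora43, Snord118 and Scarna9 went the other way. Snora43 was at 12.5, 3.85, 7.79 and 7.84 CPM in O-WT HSCs and at 15.5, 17.1, 16.0 and 10.2 CPM in O-WT GMPs. HSC library 1 overlapped the GMP libraries, and the difference was -0.88 on the log2 scale (SE 0.26, edgeR adjusted p = 0.00611), not called without O-WT HSC library 2 (-0.65). Snord118 is U8, a C/D box RNA with a role in releasing 5.8S and 28S rRNA from the precursor and not in methylation. It was at 11.1, 5.22, 6.91 and 9.29 CPM in HSCs and at 21.8, 15.6, 16.3 and 7.92 CPM in GMPs. The lowest GMP library fell within the HSC range, and the difference was -0.92 (SE 0.30, edgeR adjusted p = 0.0127), not called without O-WT HSC library 2 (-0.76) or GMP library 1 (-0.71). Scarna9, which guides methylation of U2 snRNA and of which 70 nt are annotated, was at 1.77, 1.20, 1.57 and 0.826 CPM in HSCs and at 4.08, 5.16, 4.49 and 1.87 CPM in GMPs. All GMP libraries were higher, and HSCs minus GMPs came to -1.54 (log2, SE 0.44, edgeR adjusted p = 0.00407), on 4 to 60 reads per library over cohort 2. With library totals alone the 3 differences were -0.39, -0.41 and -0.96 and did not pass.

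**Figure D2:**
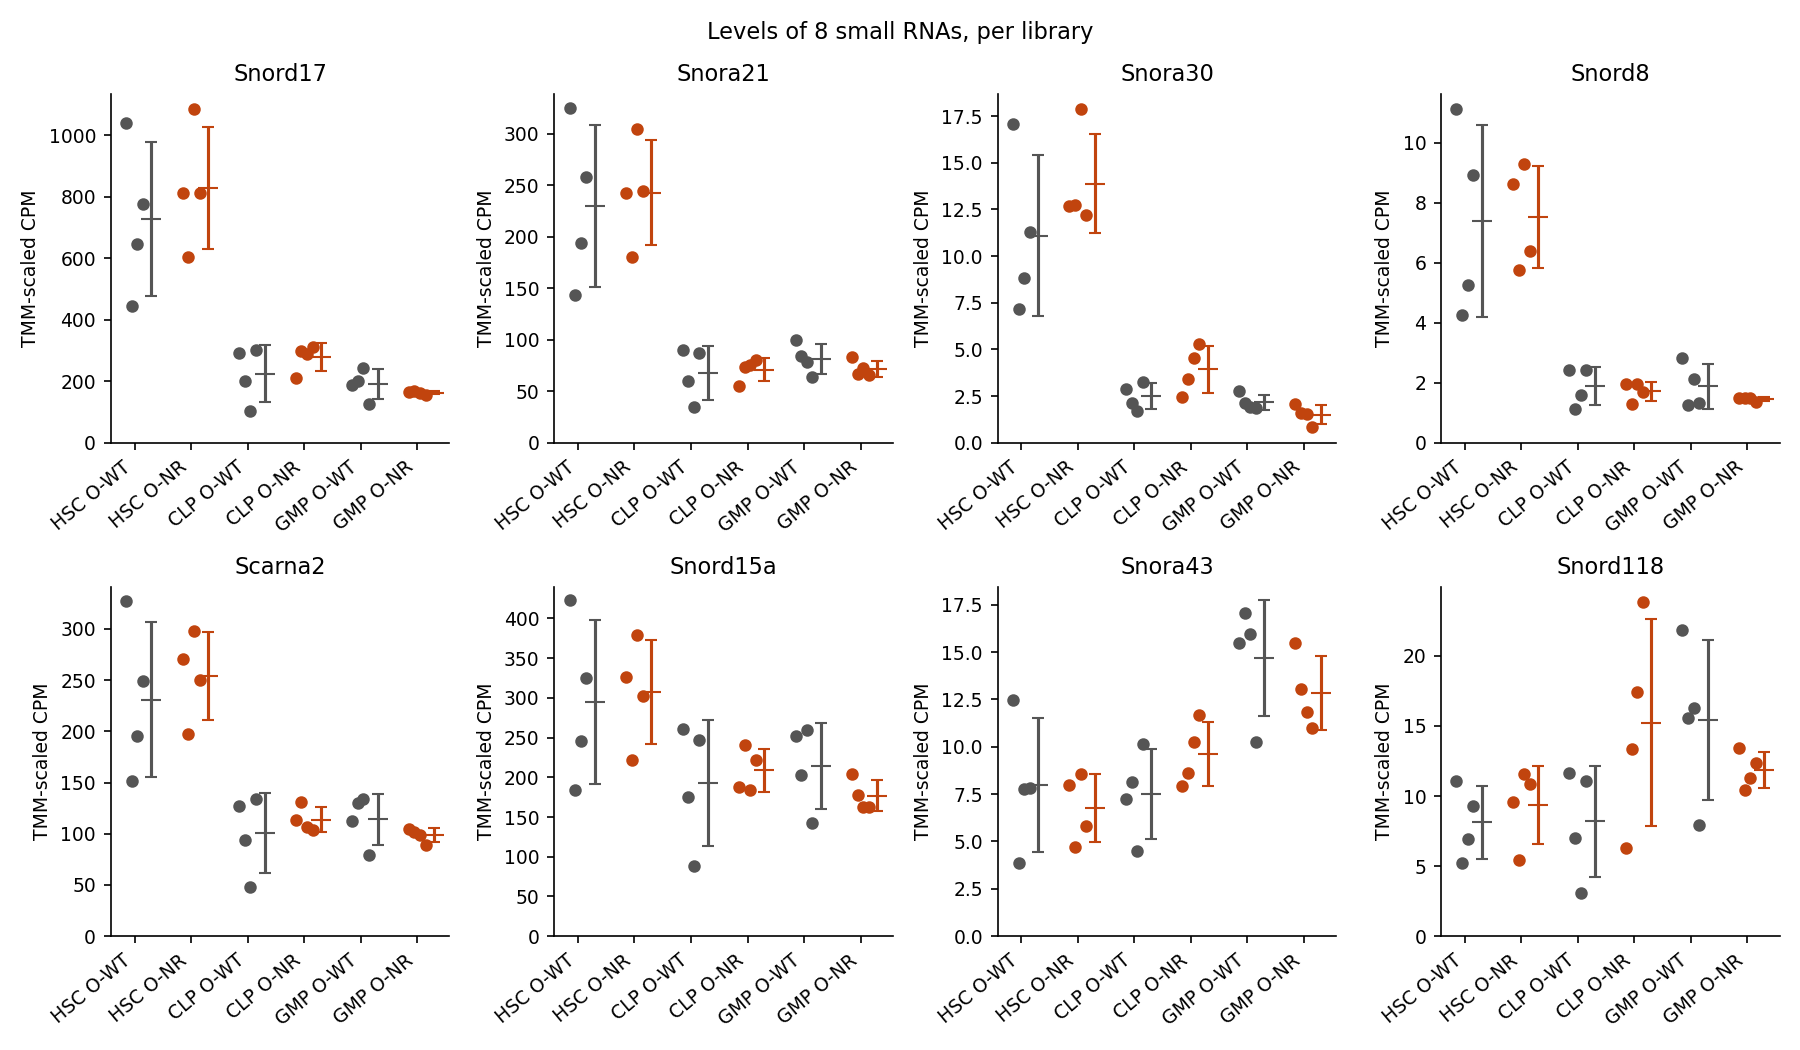
TMM-scaled CPM of 8 RNAs in each cohort 2 library by cell type and treatment, with points for libraries and bars for the mean ± SD of 4. Snord17, Snora21, Snora30, Snord8 and Scarna2 are highest in HSCs without overlap, Snord15a overlaps between cell types, Snora43 is highest on average in GMPs, and Snord118 is so in O-WT.

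Between the progenitors, 0 of the 45 RNAs were higher and 5 lower in O-WT CLPs than in O-WT GMPs by edgeR, 11.1% against 41.2% of all genes called in either direction, 18.9% higher and 22.2% lower. The 5 were Snora43 (log2 -0.96, edgeR adjusted p = 0.00288), Snora78 (-0.97), Snord118 (-0.90), Snora47 (-1.05) and Snora62 (-0.66). Snora43 was at 7.25, 8.14, 4.48 and 10.1 CPM in CLPs, just under the GMP range that starts at 10.2 CPM. At an unadjusted p below 0.05, 0 RNAs were higher and 6 lower, where 24.4% of all genes were lower, and the counts by DESeq2 were the same. The call of Snora62 was lost without O-WT CLP library 2 or 3 or O-WT GMP library 1 or 3, and that of Snora47 without CLP library 2 or 3 or GMP library 2 or 3. Snora78 did not pass without CLP library 3 (-0.72), nor did Snord118 without CLP library 3 (-0.63) or GMP library 1 (-0.68). This direction depended on the scaling: with library totals alone 8 RNAs were higher in CLPs and 0 lower, a setting that moved the median of all genes by 0.77 on the log2 scale, and with upper quartile scaling 1 was higher and 1 lower. Of the 29716 genes tested 16535 were higher and 2966 lower with library totals, and 11235 and 4608 with upper quartile scaling. Relative to the median of all genes the 45 RNAs stood at -0.72 by TMM and at -0.81 by library totals. Without O-WT CLP library 3 the count of lower RNAs was 1, and 4 without the library of highest receptor counts in each cell type.

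The O-NR contrasts compare other libraries, but both sets of tests come from 1 fit that shares its estimate of the spread, so the calls are not independent. In O-NR, 11 of the 45 RNAs were higher and 2 lower in HSCs than in CLPs by edgeR (28.9% against 23.1% of all genes), and all 11 were among the 14 called in O-WT. Without O-NR HSC library 3 the count of higher RNAs was 6. Against GMPs 16 were higher and 2 lower (40% against 25% of all genes), and the 16 took in all 10 called in O-WT. HSCs were above both progenitors for 10 RNAs in O-NR, where 7.77% of all genes were. In O-WT and O-NR alike these were Snord17, Snord8, Snord23, Snora30, Snora21, Snora73b, Snora20 and Scarna2, 8 in all. The call of Snora73b against CLPs in O-NR was lost without O-NR HSC library 3 or O-NR CLP library 1. Between O-NR CLPs and GMPs 4 were higher and 0 lower (8.89% against 27.1% of all genes), and 1 was higher without O-NR CLP library 4. This count followed the scaling, with 1 higher for RLE size factors, 9 for upper quartile scaling and 18 for library totals, and 0 lower in each. Of the 29716 genes tested 2727, 5820 and 7492 were called higher under these scalings, in the same order. Relative to the median of all genes the 45 RNAs stood at -0.02 in O-NR CLPs minus GMPs, by TMM as by library totals. In O-WT they stood at -0.72 and -0.81.

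Snord17 was at 813, 605, 1087 and 812 CPM in O-NR HSCs, at 212, 300.0, 289.5 and 313 CPM in O-NR CLPs and at 164, 168, 163 and 156 CPM in O-NR GMPs. The ranges of all 3 cell types were apart, and Snord17 was also higher in CLPs than in GMPs there (log2 0.78, SE 0.26, edgeR adjusted p = 0.0221), a call lost without O-NR CLP library 4 or O-NR GMP library 1 or 4, with no filter on low genes, with RLE size factors and by DESeq2. Snora30 was at 12.7, 12.8, 17.9 and 12.2 CPM in O-NR HSCs and at 2.05, 1.57, 1.57 and 0.831 CPM in O-NR GMPs. Its log2 difference of 3.19 (SE 0.33, edgeR adjusted p = 9.47e-13), or 9.12-fold, was the largest among the 45 RNAs in the contrasts between cell types. Over all 16 cohort 2 libraries of CLPs and GMPs, 6 RNAs (Snord17, Snord8, Snord23, Snora30, Snora21 and Scarna2) were above every such library in each of the 8 HSC libraries, as were 4.56% of genes.

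In O-NR the RNAs on the lower side in HSCs were others in part. Snora43 was again lower than in GMPs (log2 -0.92, edgeR adjusted p = 0.00494). Snora2b was lower in O-NR HSCs than in CLPs (-1.56, edgeR adjusted p = 0.0479) and GMPs (-1.76, edgeR adjusted p = 0.0182), on 1 to 28 reads per library. Snord13, or U13, which pairs with 18S rRNA, was lower than in CLPs (-1.74, edgeR adjusted p = 0.0200). Its 4 to 26 reads per library make this a coarse measure. The Snora2b call against CLPs was lost without O-NR HSC library 1 or 3 and without any of O-NR CLP libraries 2, 3 and 4. The Snora2b call against GMPs was lost without O-NR HSC library 1 or 3 or GMP library 1, and the Snord13 call without O-NR HSC library 2 or 3 or CLP library 3 or 4 and in a fit of the 2 groups alone.

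**Figure D3:**
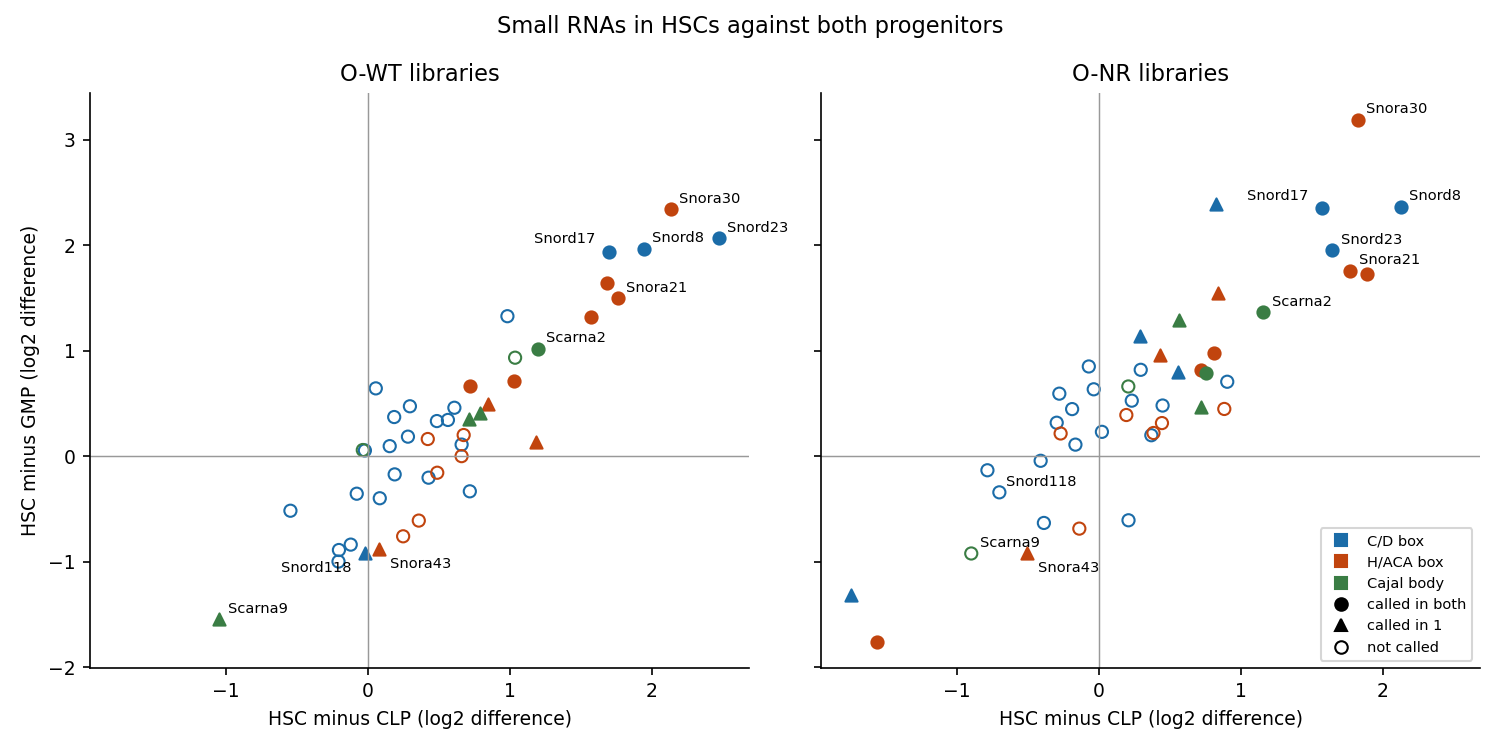
Log2 difference between HSCs and GMPs (y axis) against that between HSCs and CLPs (x axis) for the 45 RNAs in O-WT and in O-NR, coloured by class, where filled circles were called on both axes, triangles on 1 and open circles on neither, and both axes share the HSC libraries. Snora30, Snord17, Snora21 and Snord8 sit at the upper right in both treatments.

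For RNAs of high level, the share of the reads on all 45 was also set side by side. Snord17 took 34.2 to 38.4% of the reads on the 45 RNAs in the 8 HSC libraries, 23.0 to 26.9% in CLPs and 16.0 to 20.2% in GMPs. The 3 ranges do not touch, although the level of Snord17 ran from 444 to 1087 CPM within HSCs. Snora21 took 10.6 to 11.4% in HSCs, 5.94 to 7.71% in CLPs and 6.54 to 8.74% in GMPs. Snord15a had the opposite order, with 13.4 to 14.3% in HSCs, 17.1 to 21.3% in CLPs and 18.4 to 21.6% in GMPs. Scarna2 held about the same share everywhere, at 10.5 to 11.9%, 8.64 to 12.3% and 9.57 to 11.9%. By class the C/D box RNAs made up 51.9 to 55.4% of these reads in HSCs, 49.0 to 52.5% in CLPs and 43.4 to 48.0% in GMPs, while H/ACA box RNAs made up 25.3 to 27.3%, 24.1 to 29.8% and 26.7 to 31.8%. Shares of one sum are bound to each other, so these are descriptions.

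The ratio of Snord17 reads to Snord15a reads, chosen after the values were seen, was 2.40 to 2.63 in O-WT HSCs and 2.50 to 2.87 in O-NR HSCs. It was 1.12 to 1.22 in O-WT CLPs and 1.13 to 1.57 in O-NR CLPs. In GMPs it was 0.747 to 1.00 in O-WT and 0.803 to 0.999 in O-NR. The cell types were apart in both treatments, and the ratio needs no scaling between libraries. Scaling on the 45 RNAs alone, a setting also chosen after seeing the data, asks which RNAs moved against the rest of the class. Snord17, Snora21, Snora30, Snord8 and Scarna2 were then higher in HSCs in 4 of 4 contrasts, with 1.03 and 1.60 on the log2 scale for Snord17 in O-WT against CLPs and GMPs, 1.08 and 1.15 for Snora21 and 1.41 and 1.99 for Snora30. Snora43, Snord118 and Scarna9 were lower in 3 of 4. Snord15a was at -0.06 and 0.13 in O-WT against CLPs and GMPs and was not called, although its share was lowest in HSCs. Scarna2 was at 0.53 and 0.68 there, although its share was much the same in all cell types. Shares are taken of a sum in which Snord17 weighs most in HSCs. In O-WT 6 RNAs were then higher and 2 lower against CLPs, where 31.4% of all genes were called with this scaling, and 6 were higher and 5 lower against GMPs, where 26.9% of all genes were. The called share of the 45 was below that of all genes in both. In O-NR 6 were higher and 3 lower against CLPs, where 16.6% of all genes were called. Against O-NR GMPs 6 were higher and 7 lower, where 28.3% of all genes were. In these O-NR contrasts the called share of the 45 was not below that of all genes.

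The difference of each called RNA was set beside that of its host gene. In HSCs minus GMPs of O-WT, 36 pairs of an RNA and a tested host could be set side by side, over 32 hosts. Of the 10 RNAs called among them, the host was called the same way for 1, the other way for 4 and not called for 5. Of all genes 11.8% were called higher and 16.7% lower in this contrast, and in HSCs minus CLPs 12.5% and 6.65%, so nothing is read from these counts of hosts. Snord17 was higher in HSCs while Snx5, a sorting nexin, was lower (log2 -1.31, SE 0.24, edgeR adjusted p = 6.84e-06). Snx5 was at 80.4 to 124 CPM in O-WT HSCs and 190.5 to 339 CPM in O-WT GMPs, without overlap. The others of this kind were Snora73b and Snhg3 (-1.34), Snora23 and the importin Ipo7 (-1.48), and Snora20 and the chaperonin subunit Tcp1 (-1.67). Under the 4 scalings tried these 4 hosts stayed lower, with Snx5 between -1.43 and -0.77. Scarna9 and the centriole gene Cep295 were both lower (-1.54 and -1.32). For Snora30, Snord8 and Snora21 the hosts Srcap, Chd8 and Rpl23 were at 0.05, -0.39 and -0.14 and were not called.

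In HSCs minus CLPs of O-WT, 12 RNAs with a tested host were called. The host was called the same way for 2, Snora21 with Rpl23 (log2 1.00, edgeR adjusted p = 0.00353) and Snord23 with the ribosome assembly factor Nop53 (1.26, edgeR adjusted p = 7.43e-05), and was not called for 10. Snx5 was at -0.53 there (edgeR adjusted p = 0.108). Across the 36 pairs Spearman's rho between the difference of the RNA and that of its host was -0.02 against CLPs and 0.16 against GMPs, a description over genes that share libraries and, for some, a host.

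**Figure D4:**
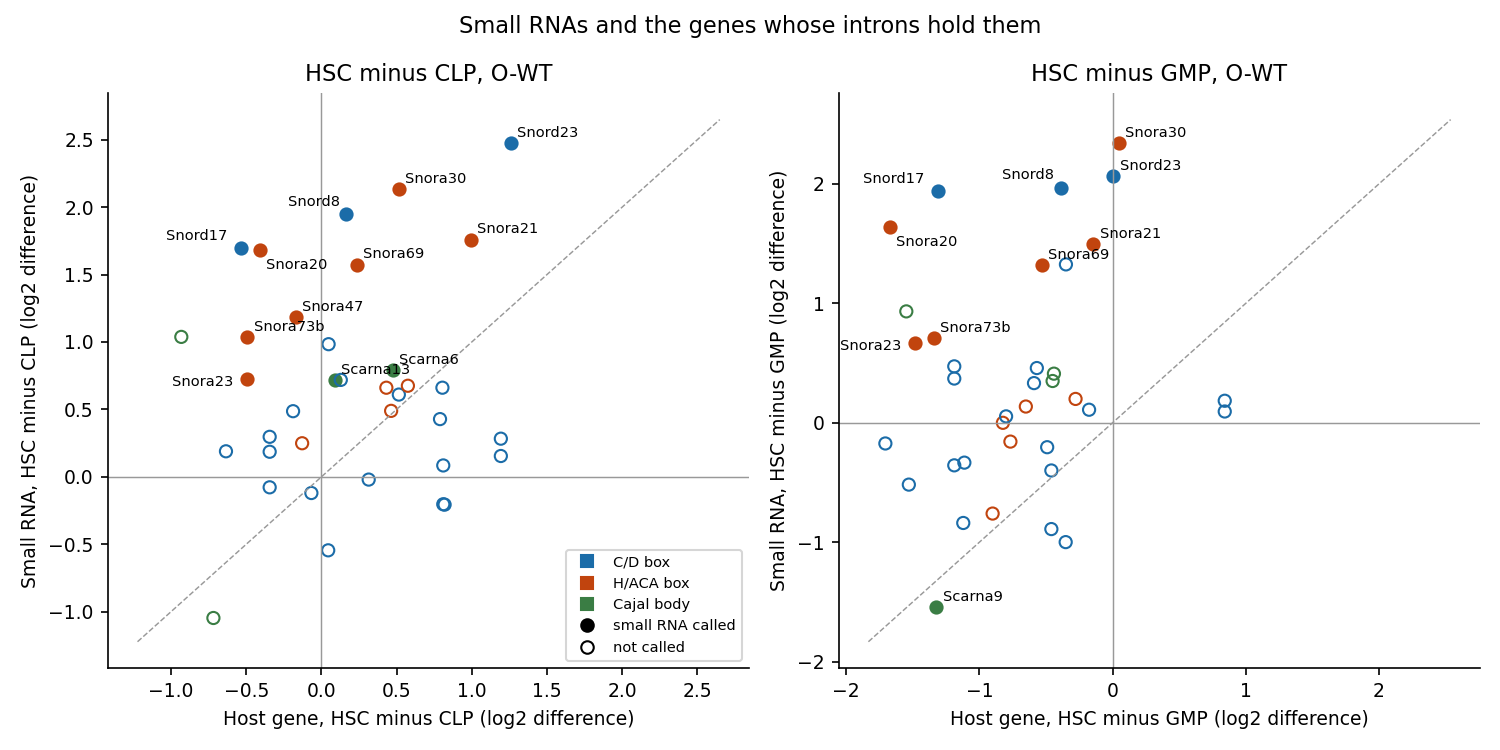
Log2 difference between O-WT HSCs and O-WT CLPs or GMPs of 36 RNAs with a tested host (y axis) against that of their host genes (x axis), coloured by class, with called RNAs named and a dashed line where both are equal. Most named RNAs sit above the line, and Snord17 lies at 1.94 where its host Snx5 lies at -1.31 in the panel against GMPs.

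The transcripts of the proteins that carry these RNAs also differed from them, and no protein was measured. Of 26 tested genes for snoRNA proteins, assembly factors, Cajal body proteins and trimming enzymes, 0 were higher and 21 lower in O-WT HSCs than in O-WT GMPs by edgeR, with a median of -1.08 on the log2 scale, where 16.7% of all genes were lower. The transcripts of all 4 C/D box proteins were lower, fibrillarin (Fbl) at -1.40, Nop56 at -1.71, Nop58 at -1.12 and Snu13 at -1.45. Those of all 4 H/ACA box proteins were lower as well, dyskerin (Dkc1) at -1.58, Nhp2 at -1.73, Gar1 at -1.28 and Nop10 at -1.12. Fbl was at 44.8 to 84.4 CPM in O-WT HSCs and 134 to 216 CPM in O-WT GMPs, without overlap. Coilin (Coil), the marker protein of Cajal bodies, was at -0.37 and not called (edgeR adjusted p = 0.192). Against CLPs 1 of the 26 was higher and 1 lower in O-WT HSCs, the lower being Snu13 (-0.64, edgeR adjusted p = 0.0316). That pair of counts changed with the scaling, to 0 and 0 with RLE size factors, 0 and 6 with upper quartile scaling and 1 and 6 with library totals. O-WT CLPs were lower than GMPs for 25 and higher for 0, where 22.2% of all genes were lower. With library totals alone 16 of the 26 stayed lower in HSCs than in GMPs and 13 in CLPs than in GMPs, with 0 higher in both.

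Of 13 listed snoRNAs that act in cutting the ribosomal RNA precursor, 10 are in the files and 4 passed the limit on the mean (Snord118, Snord13, Snora73b and Snora62), while 5 had no read, Snord22 and 4 copies of Snord14, all inside exons of their hosts. The 4 did not share a direction between cell types. In O-WT Snora73b was higher in HSCs than in both progenitors, and Snord118 was lower in HSCs and CLPs than in GMPs. Snora62 was called there only as lower in CLPs than in GMPs, at 4.71 to 11.4 CPM against 11.1 to 20.9 CPM. With library totals alone that difference of Snora62 was 0.0043. In O-NR, with TMM scaling, neither Snord118 nor Snora62 was called between cell types. Snora73b shares its host with the near copy Snora73a, which had 188 reads over the 24 libraries, and how reads were split between them is uncertain. Of the 4 snoRNAs in introns of Rpl13a, which are known from the response of cells to excess fatty acid, 3 passed the limit. Snord32a averaged 4.02, 3.27 and 2.59 CPM in HSCs, CLPs and GMPs, Snord34 2.07, 2.43 and 2.41 CPM, and Snord35a 1.86, 1.79 and 1.23 CPM. Of the 3, 0 were called in a contrast between cell types. The 19 snoRNAs of imprinted clusters in the files were Snord64, Snord107 and copies of Snord116, with no Snord113, Snord114 or Snord115. Of these 19, 0 passed the limit and 16 had no read. Snord64 and Snord107 lie wholly inside exons, and how reads of the Snord116 copies were counted is not known. Their 0 is not read here as absence.

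Whether NR moved these RNAs in old mice was asked in each cell type. By edgeR on the 8 libraries of each cell type, 0 of the 45 RNAs were called between O-NR and O-WT in HSCs, CLPs or GMPs, where 0.0168%, 0% and 0.0135% of all genes were called. At an unadjusted p below 0.05 the counts were 1, 2 and 1 in the same order, where 2.42%, 3.24% and 3.21% of all genes were, and DESeq2 called 0 as well. In CLPs Snord118 was at 11.6, 7.01, 3.10 and 11.0 CPM in O-WT and at 6.28, 13.3, 17.5 and 23.9 CPM in O-NR. The groups overlapped, and the difference was 0.86 on the log2 scale (SE 0.31, unadjusted p = 0.00791 by edgeR), the only one below 0.01. Snord91a was at 0.879, 0.904, 1.38 and 0.649 CPM in O-WT CLPs and at 1.65, 1.63, 3.66 and 3.08 CPM in O-NR CLPs. Its groups were apart (log2 1.32, SE 0.63, unadjusted p = 0.0400 by edgeR), on 8 to 41 reads per library over cohort 2.

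In HSCs Snord13 was at 2.30, 1.63, 0.875 and 0.688 CPM in O-WT and at 0.544, 0.349, 0.415 and 0.873 CPM in O-NR. The groups overlapped at O-NR library 4, and the difference was -1.34 (SE 0.65, unadjusted p = 0.0447 by edgeR). In GMPs Snord87 was at 10.7, 4.54, 6.08 and 4.80 CPM in O-WT and at 5.31, 4.79, 3.13 and 3.32 CPM in O-NR. It overlapped too, and the difference of -0.64 (unadjusted p = 0.0200 by edgeR) was -0.29 without O-WT GMP library 1. The most abundant RNA, Snord17, differed between O-NR and O-WT by 0.17 (SE 0.24) in HSCs, 0.29 (SE 0.27) in CLPs and -0.19 (SE 0.13) in GMPs.

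Taken one by one these differences did not pass, and as a set they leaned in a direction that differed between CLPs and GMPs. The median over the 45 RNAs was 0.04 for HSCs, 0.26 for CLPs and -0.26 for GMPs, against -0.02, -0.02 and 0.01 over all genes. Over the 36 pairs with a tested host, the median in CLPs was 0.25 for the RNAs and 0.23 for their hosts. It was 0.03 and 0.07 in HSCs and -0.28 and -0.02 in GMPs, so the lean in CLPs was not particular to these RNAs. Estimates were above 0 for 29 of 45 RNAs in HSCs, for 36 in CLPs and for 6 in GMPs. Of all 29716 genes 14139, 14276 and 15612 were above 0 in the same order. In CLPs the medians were 0.24 for C/D box, 0.29 for H/ACA box and 0.09 for Cajal body RNAs, and in GMPs -0.33, -0.15 and -0.22. The RNAs share the libraries and their scaling, so these counts are no test. The members' summed level was 451 CPM in O-WT CLP library 3 and 731 CPM in O-WT GMP library 4, the lowest of each cell type, beside their high receptor counts, and the part of these libraries in the medians was not tested. As a test of the difference, the NR effect was set against that of the other cell type in the fit over 24 libraries. By edgeR 0 of the 45 were called for HSCs minus CLPs, HSCs minus GMPs and CLPs minus GMPs, where 0.0101%, 0.00337% and 0% of all genes were. At an unadjusted p below 0.05 the counts were 3, 1 and 5, where 2.89%, 1.71% and 3.32% of all genes were. For CLPs minus GMPs the smallest p was that of Snord118 (log2 1.26, SE 0.42, unadjusted p = 0.00409 by edgeR). Of the 26 snoRNA protein genes 0 were called for NR in any cell type.

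**Figure D5:**
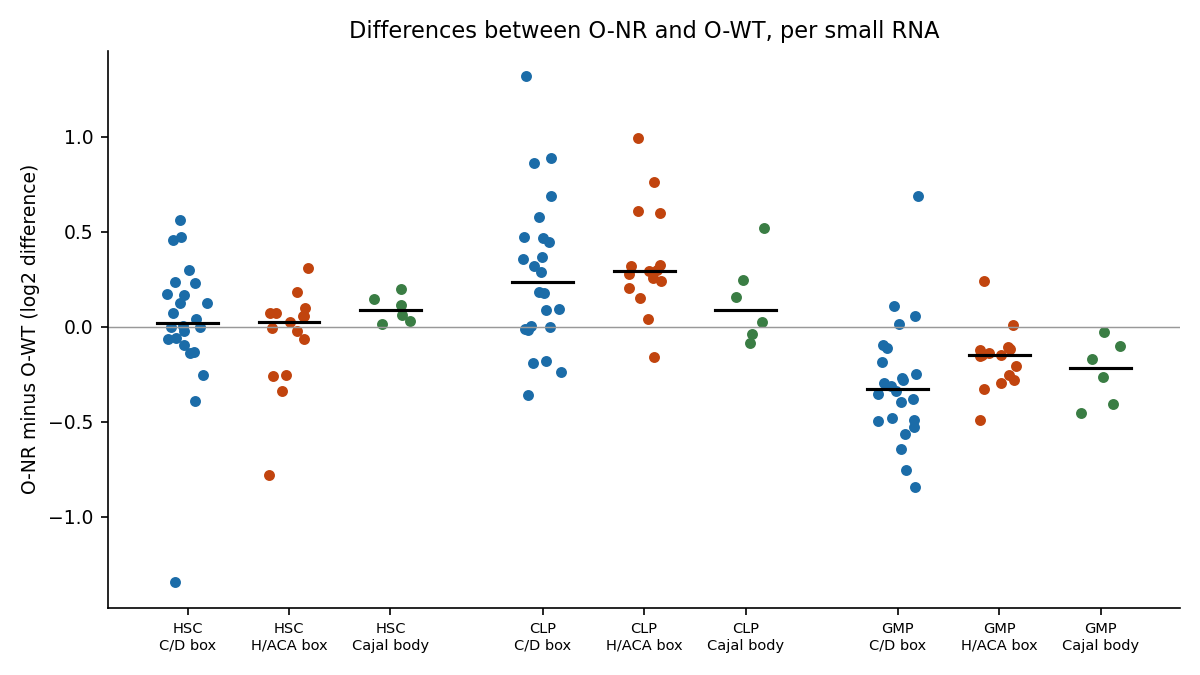
Log2 difference between O-NR and O-WT of each of the 45 RNAs in HSCs, CLPs and GMPs, by class, where points are RNAs and black lines class medians. The points lie around 0 in HSCs, mostly above 0 in CLPs and mostly below 0 in GMPs, and 0 of them were called.

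Cohort 1 allowed a second look at HSCs and the withdrawal of NR. Of the 45 RNAs 34 had a mean above 1 CPM there, and by edgeR 0 were called for O-NR minus O-WT and for O-NR-RC minus O-NR, where 0% of 40868 genes were, with 0 at an unadjusted p below 0.05 in both and 0 by DESeq2. The libraries differed more within groups than between them. Snord17 was at 605 and 460.0 CPM in the 2 O-WT libraries, at 197, 218, 745 and 834 CPM in the 4 O-NR libraries and at 1045, 193 and 254 CPM in the 3 O-NR-RC libraries. The summed level of the 45 RNAs ran from 497 to 2494 CPM. The 4 libraries at 497 to 650.1 CPM had receptor sums of 10949 to 11500 CPM, and the 5 at 1258 CPM or more had receptor sums of 6925 to 9443 CPM. With so wide a spread the SE of the NR difference of Snord17 was 0.88 on the log2 scale (estimate -0.10).

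Shares within the class were set beside those of cohort 2, which unlike those of cohort 1 also hold reads of Snora73b. Snord17 took 35.6 to 41.9% of the reads on the 45 RNAs in the 9 cohort 1 libraries, and its ratio to Snord15a was 1.91 to 2.40, above the ratio of each CLP and GMP library of cohort 2, while the HSC libraries of cohort 2 were at 2.40 to 2.87. C/D box RNAs made up 57.6 to 65.6% of the reads in cohort 1 and 51.9 to 55.4% in cohort 2 HSCs, and H/ACA box RNAs 14.9 to 18.5% and 25.3 to 27.3%, so neither share overlapped. Snora73b, at 908 to 2133 reads per library in cohort 2 HSCs, had 0 reads in all 9 cohort 1 libraries. Its near copy Snora73a was also at 0, and the host Snhg3 had 0 to 4 reads, whereas Rcc1 had 223 to 526. Levels are therefore not compared between the cohorts. Since Snora73b enters the H/ACA box sum and the total in cohort 2 alone, the shares of the cohorts are not over the same RNAs. Shares without it were not computed, so nothing is read from their gap.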

How the data were processed

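Total RNA of sorted cells was made into libraries with the SMARTer total RNA-seq v2 Pico kit. Per the study's methods the authors trimmed reads with trim galore and cutadapt, used STAR for alignment to mm10, and obtained gene-level totals from featureCounts with Gencode M22. The files deposited by the authors hold these raw read counts per gene symbol. Strand and multi-mapping settings were not given in the sources used here.

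From the counts, libraries were scaled by TMM and genes with a mean above 1 CPM over a cohort's libraries were tested with edgeR 4.0.16 (R 4.3.3, limma 3.58.1) by the quasi-likelihood test with Benjamini-Hochberg adjustment over 29716 genes in cohort 2 and 40868 in cohort 1. For 0 calls, the counts at an unadjusted p below 0.05 are given as well. Called means an adjusted p below 0.05. Cell types were compared in 1 fit of 6 groups over 24 libraries, NR within the 8 libraries of each cell type, and cohort 1 in a fit of 3 groups. Library totals ran from 4792380 to 23816042 reads. Each SE comes from the edgeR fit and includes the spread between libraries as well as counting error. For 46 pairs of libraries within groups, chi-square divided by its degrees of freedom was at least 1.96, and no library was taken as a copy. Positions, hosts and sequences came from Gencode M21 on mm10, which held 54510 of 55376 symbols. The scripts were tested on simulated data.

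The RNAs and all gene lists were chosen with earlier results of these data known. RNAs were named for level (the 5 C/D box, 5 H/ACA box and 3 Cajal body RNAs with the highest mean), for the smallest p (up to 4 called per direction between cell types and up to 3 per direction for NR) and as part of the fixed lists of cleavage, Rpl13a and imprinted snoRNAs. RNAs named outside this rule, such as Snord23, Snora69, Snora20, Snora2b and Snord91a, were chosen after their values were seen. Alternatives were RLE size factors, upper quartile scaling, library totals alone, other filters, DESeq2 1.42.0, other sets of groups, a replicate block, and each library left out. Scaling on the 45 RNAs, the ratio of Snord17 to Snord15a and the fit without the libraries of highest receptor counts were added after seeing the data.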

Additional observations from a re-analysis of the deposited data

Results flagged for a closer look

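In 9 of 231 groups of 4 libraries examined, 1 library of a group stood far from the other 3, and chance alone flags about 1 in 20 such groups. In O-NR GMPs Snora23 was at 54.7 CPM in library 1 against 44.6 to 45.0 CPM in the others. In O-NR CLPs Snord87 was at 9.23 CPM in library 4 against 6.71 to 7.10 CPM. In O-WT GMPs Snord49a was at 9.83 CPM in library 1 against 4.45 to 5.16 CPM, Snora31 at 1.07 CPM in library 4 against 3.79 to 4.33 CPM, and Snord91a at 3.61 CPM in library 3 against 1.25 to 1.60 CPM. In O-NR HSCs Snora30 was at 17.9 CPM in library 3 against 12.2 to 12.8 CPM, and Snord71 at 1.18 CPM in library 1 against 0.831 to 0.874 CPM. In O-NR GMPs Snord8 was at 1.35 CPM in library 4 against 1.48 to 1.49 CPM, and Snora41 at 2.61 CPM in library 3 against 2.79 to 2.80 CPM. No NR effect on these RNAs differed between cell types by the test of the difference.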

How the results depend on the processing

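Over the results counted, 556 main values or counts stayed as reported and 82 moved, and of the values of single RNAs 1290 stayed, 168 lost a call and 13 changed sign. Where not said otherwise, the cause was not tested. Without 1 library at a time, RNAs higher in O-WT HSCs than CLPs numbered 8 to 17 and lower 0 to 1, and against O-WT GMPs 7 to 12 and 1 to 5. In O-WT CLPs 1 to 6 were lower than in GMPs. In O-NR the ranges were 6 to 14 higher and 0 to 3 lower for HSCs against CLPs, 14 to 16 and 1 to 2 against GMPs, and 1 to 5 higher for CLPs against GMPs. All counts for NR stayed 0. With a filter above 3 CPM 26 RNAs remained in the test, by construction, with 3 lower for CLPs minus GMPs in O-WT, and 0 and 1 lower for O-NR HSCs minus CLPs and GMPs. With no filter 1 was lower for HSCs minus CLPs and 2 higher for CLPs minus GMPs in O-NR. With RLE size factors 1 was higher for CLPs minus GMPs in O-NR, and the Cajal body sum of O-NR GMPs was 249.8 CPM. With upper quartile scaling 1 was lower for O-WT HSCs minus CLPs, 1 higher and 1 lower for O-WT CLPs minus GMPs, 4 lower for O-NR HSCs minus CLPs and 9 higher for O-NR CLPs minus GMPs. With library totals 20 were higher and 0 lower for O-WT HSCs minus GMPs, 8 and 0 for O-WT CLPs minus GMPs, 1 lower for O-NR HSCs minus GMPs and 18 higher for O-NR CLPs minus GMPs, and GMP sums were 323 CPM (C/D, O-NR), 236 and 216 CPM (H/ACA, O-WT and O-NR) and 200.0 and 194 CPM (Cajal body). Snora62 in O-WT CLPs minus GMPs turned to 0.0043. DESeq2 gave 2 higher for O-NR CLPs minus GMPs, and a fit of 2 groups alone 0 lower for O-NR HSCs minus CLPs. Scaled on the 45 RNAs, 6 were higher and 2 lower for O-WT HSCs minus CLPs, 6 and 5 for HSCs minus GMPs and 1 and 0 for CLPs minus GMPs. In O-NR the counts were 6 and 3, 6 and 7, and 2 and 0 in the same order. Without the libraries of highest receptor counts 1 was lower for O-WT HSCs minus CLPs. Without the highest RNA of each class, sums were 369.7, 388, 252, 283, 289.7 and 237 CPM (C/D, in O-WT and O-NR HSCs, CLPs and GMPs), 323 and 338 (H/ACA HSCs), 225 (O-NR CLPs), 226 and 196 (GMPs), and 190.1, 202, 117, 124, 150.3 and 141 CPM (Cajal body).

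Replicate numbers were not taken to pair the libraries, since the labels give no shared litter or batch and not every same-numbered pair correlated above 0.1. Across cell types such pairs averaged -0.02. O-WT and O-NR pairs averaged 0.15 (HSCs), 0.05 (CLPs) and 0.06 (GMPs), against -0.05, -0.01 and -0.02 for other pairs, and 0.03 in cohort 1. With the number as a replicate block 1 RNA was lower for O-NR HSCs minus CLPs, Snora23 in O-WT HSCs minus GMPs (0.58) and Snora2b in O-NR HSCs minus CLPs (-1.67) did not pass, and Snora41 in cohort 1 was at -0.30 for O-NR minus O-WT. Uncalled NR differences changed sign without 1 library for Snord43 (-0.38 to 0.10) and Snord71 (-0.70 to 0.43) in CLPs, where Snord71 was also at 0.13, for Snord49a in GMPs (-0.0052 to 0.45), for Snora41 in cohort 1 (-0.047 to 0.51) and, after NR was withdrawn, for Snord118 (-1.34 to 0.91), Snora31 (-1.12 to 0.66, with -0.06 and -0.02), Snord43 (-0.33 to 0.42) and Snord8 (-1.76 to 0.0051). RNAs with few reads, such as Snord13 at 4 to 26 and Snora2b at 1 to 28 reads per library, allow only wide estimates.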
